A study of Mus musculus with 6 samples.

Results

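The cells described here are 1661 T cells from the Gli1+ library of uninjured mouse Achilles tendon, out of 7516 cells kept from that library and 63329 cells kept from all 6 libraries of the study. They were chosen by their transcripts. A cell was kept when it held at least 1000 unique molecular identifiers (UMIs, each a tagged mRNA molecule) from at least 200 genes, with at most 5% of its UMIs from mitochondrial genes. A kept cell was called a T cell when it held 1 or more UMIs of Ptprc (CD45, a surface protein of white blood cells) and 2 or more UMIs of the CD3 genes Cd3d, Cd3e and Cd3g in sum. It was taken when it also held 0 UMIs of Il17a, Il23r, Scart1 and Blk, genes of T cells that make interleukin-17. The cells were then split by Trac, the constant part of the alpha chain of the T cell receptor, and by Foxp3 or Ctla4. The other 1551 T cells of this library held at least 1 UMI of those 4 genes and are called interleukin-17 type T cells here.

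The mice were Gli1-CreERT2; Ai9 animals given tamoxifen, which switches on a red reporter in cells that use the Gli1 promoter at that time and in their descendants. They were 24 in all, with equal numbers of each sex and 8 in each time group, and their age was not given in the sources used here. Tendons were left uninjured or were taken at 7 or 21 days post injury (dpi) after Achilles tenotomy, and the sort gave a Gli1+ and a Gli1- fraction of cells from each time. Each of the 6 conditions is 1 library of pooled mice, so the spread between mice is unknown, no test was made, and every interval given is a 95% interval of counting error only. Cells of 1 library are not replicates, and the groups of T cells were formed from the same counts that describe them.

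T cells carry a receptor made of an alpha and a beta chain or of a gamma and a delta chain, held at the surface by the CD3 proteins. Alpha-beta T cells mostly use CD4 or CD8 as a coreceptor. CD4 cells help other immune cells or, as regulatory T cells under the transcription factor Foxp3, restrain them, while CD8 cells kill infected or damaged cells.

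Nearly all such cells of the study were in this library. Ptprc was found in 57.2% of its kept cells, against 3 to 37 Ptprc+ cells in each of the other 5 libraries. The same rule found 2 cells among 12113 in the Gli1- uninjured library and 1 among 10064 in the Gli1+ library at 7 dpi. It found 0 in the Gli1- library at 7 dpi and in the Gli1+ and Gli1- libraries at 21 dpi, which allows shares of up to 0.0275%, 0.0281% and 0.0249% (3 cells of each total). Between the Gli1+ and Gli1- uninjured libraries, sort and library cannot be told apart. Against the libraries from 7 and 21 dpi, library, time and injury cannot be told apart, nor can sort for the Gli1- ones. Gli1 itself, the gene behind the sort, had a UMI in 18 of the 1661 T cells (1.08%, 0.643 to 1.71%), in 3.12% of 481 endothelial cells and in 8.46% of the 2990 cells of the library that had neither Ptprc nor CD3 UMIs. The library shared 27 to 44 cell barcodes with each other library, and 2 to 9 of these were among the 1661 cells.

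The 1661 cells made up 22.1% of the kept cells of the library (21.2 to 23.1%). They held 14134323 UMIs in sum and 7496 UMIs per cell in the median (quartiles 6098 and 9265), against a median of 8732 in the interleukin-17 type T cells. Levels are given as the UMIs of a gene summed over a group of cells per 1000000 UMIs of that group (CPM). A share of cells is the percentage with 1 or more UMIs of a gene, and it depends on depth, so the share after each cell was thinned at random to 1000 UMIs stands beside it for the genes of the label. As background for such shares the endothelial cells are given, which should lack T cell genes and held 5567 UMIs in the median.

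The cells carried the transcripts of T cells. Cd28, the receptor for the costimulatory signal of T cell activation, was found in 90.4% of them (41.5% thinned), in 40.9% of interleukin-17 type T cells (15.9% thinned) and in 1.87% of endothelial cells (0.208% thinned). Trac was found in 82.3% (28.5% thinned), in 57.9% (14.3% thinned) and in 0.624% of these groups in the same order. Cd3e, which helped choose the cells, was found in 79.8% (21.6% thinned). The endothelial cells were called without Ptprc or CD3 UMIs, so they give no background for those genes. Ctla4, an inhibitory receptor that competes with CD28, was found in 42.9% (20.2% thinned), in 27.0% of interleukin-17 type T cells (11.3% thinned) and in 1.25% of endothelial cells. Icos, a costimulatory receptor, was found in 59.5% (27.6% thinned), which was below the 88.5% (51.0% thinned) of interleukin-17 type T cells, and in 1.46% of endothelial cells. The kinase Lck, which starts signalling from the receptor, was found in 88.6%, and Trbc2, a constant part of the beta chain, in 94.1%. Trbc1 and Trbc2 are near-identical copies, so the division of counts between them is uncertain. Foxp3 was found in 98 cells (5.90%) and in 0 endothelial cells.

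**Figure D1:**
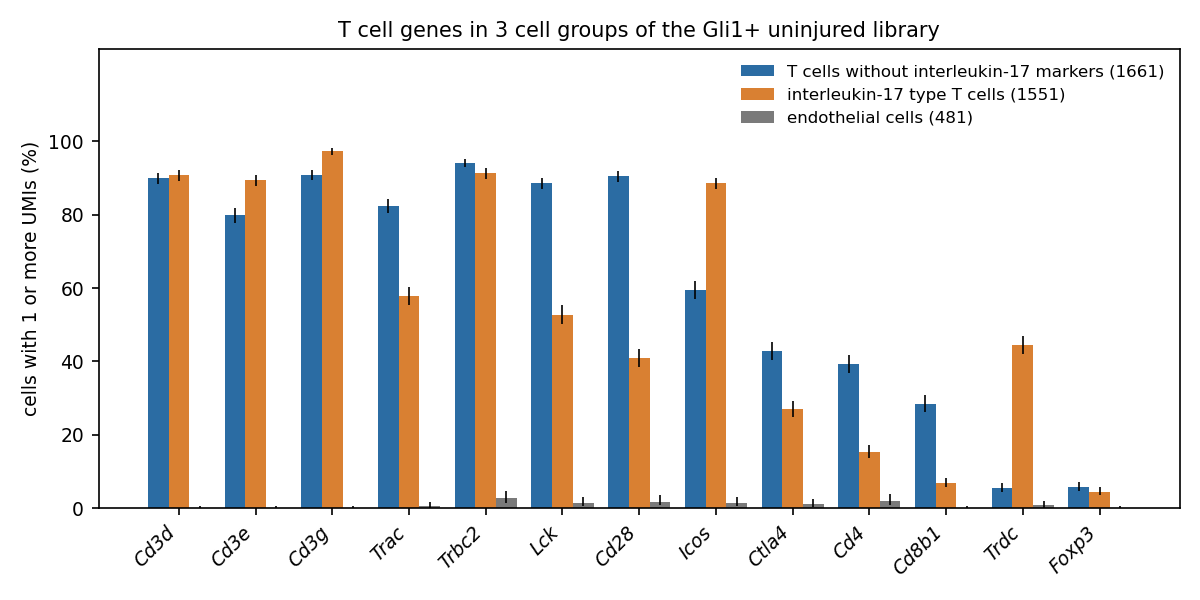
Share of cells with 1 or more UMIs of 13 T cell genes (%), where the CD3 genes of endothelial cells are at 0 because these were called without CD3 UMIs, in the 1661 T cells without interleukin-17 markers, the 1551 interleukin-17 type T cells and the 481 endothelial cells of the Gli1+ uninjured library, with bars from 0 and error bars as exact binomial 95% intervals of counting error. Cd28, at 90.4%, 40.9% and 1.87%, separates the 3 groups, while Icos and Trdc were found more often in interleukin-17 type T cells.

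At the edges of the rule, the cells held a median of 7 CD3 UMIs (quartiles 5 and 10), and 99 of the 1661 held exactly 2. Trac was found in 63.6% and Cd28 in 72.7% of these 99 cells, whose median depth was 5355 UMIs. Just outside, 112 Ptprc+ cells with none of the 4 interleukin-17 genes held exactly 1 CD3 UMI, and Trac was found in 25% and Cd28 in 29.5% of them. Of the interleukin-17 type T cells, 139 were placed there by a single UMI of the 4 genes, where the median was 16. Of the cells with Trac, 337 held exactly 1 UMI of it, and 165 cells held exactly 1 UMI of Foxp3 and Ctla4 in sum.

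Trac was found in 1367 of the 1661 cells (82.3%, 80.4 to 84.1%) and not in 294. Foxp3 or Ctla4 was found in 716 (43.1%, 40.7 to 45.5%) and neither in 945. Ctla4 gave most of these calls, since 618 of the 716 cells held Ctla4 without Foxp3. Crossed, the splits gave 633 cells with Trac and Foxp3 or Ctla4, 734 with Trac alone, 83 without Trac but with Foxp3 or Ctla4, and 211 with none of the 3 genes. A lack of Trac UMIs was not a lack of Trbc1 or Trbc2 UMIs, which 282 of the 294 Trac-less cells held. In all, 12 cells held none of Trac, Trbc1 and Trbc2. Of the Trac-less cells, 56 held UMIs of Trdc, the constant part of the delta chain. Whether the Trbc1 and Trbc2 UMIs came from a rearranged beta chain was not tested. In a separate draw of 1000 UMIs a cell, 27.8% of cells kept a Trac UMI and 21.7% a Foxp3 or Ctla4 UMI, so both shares depend on depth as well as on level.

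The coreceptors divided the cells further, in a split added after the data were seen. Cd4 without Cd8a or Cd8b1 was found in 625 cells (37.6%), Cd8a or Cd8b1 without Cd4 in 480 (28.9%), both in 27 and neither in 529 (31.8%). Of the cells with Trac and Foxp3 or Ctla4, 57.2% (53.2 to 61.1%) held Cd4 alone and 15.0% (12.3 to 18.0%) Cd8 alone. Of those with Trac and neither Foxp3 nor Ctla4, 27.9% (24.7 to 31.3%) held Cd4 alone and 41.1% (37.6 to 44.8%) Cd8 alone. The order of the coreceptors was thus opposite on either side of the Foxp3 and Ctla4 split in this library. In the 211 cells with none of the 3 genes, 54.0% held no coreceptor UMI, and Trdc, the constant part of the delta chain, was found in 24.2% (18.6 to 30.5%). Trdc was found in 93 of all 1661 cells (5.60%), in 19.0% of Trac-less cells, in 2.71% of cells with Trac and in 0.832% of endothelial cells. In the cells without a coreceptor the share with Trdc was 12.1% (9.44 to 15.2%). Foxp3 was found in 8.80% (6.70 to 11.3%) of Cd4 cells and in 0.625% (0.129 to 1.82%) of Cd8 cells.

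**Figure D2:**
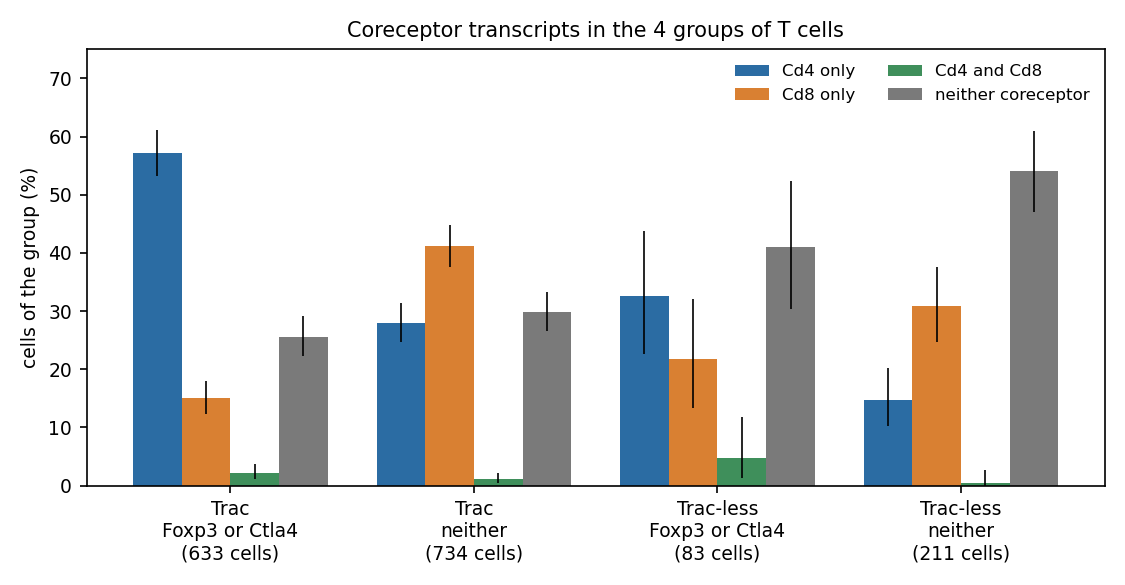
Share of cells (%) with Cd4 only, Cd8a or Cd8b1 only, both or neither in the 4 groups formed by Trac and by Foxp3 or Ctla4, with bars from 0 and error bars as exact binomial 95% intervals of counting error. Cd4 cells made up 57.2% of cells with Trac and Foxp3 or Ctla4, Cd8 cells 41.1% of cells with Trac alone, and cells without a coreceptor 54.0% of those with none of the 3 genes.

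Beside the interleukin-17 type T cells of the same library, the 1661 cells held more transcripts of CD8, of naive and lymph node homing genes and of cytotoxic genes, and fewer of type 17 and gamma-delta genes. Of 13289 genes with at least 50 UMIs over both groups, 4.91% were past 2-fold higher in the 1661 cells and 8.47% past 2-fold lower, with a median log2 ratio of -0.06 over all of these genes. The groups were chosen by 4 of the genes and by the counts of the same cells, so these values describe the groups and test nothing.

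Of 11 genes of naive and central memory cells, which circulate through lymph nodes, 9 were past 2-fold higher and 1 lower, with a list median log2 ratio of 1.34. Lef1, a transcription factor kept by naive T cells, stood at 514 CPM against 61.2 CPM, a log2 ratio of 3.07 (2.97 to 3.16), and was found in 64.2% against 15.3% of cells. Ccr7, the receptor that guides T cells to lymph nodes, had a log2 ratio of 2.52 (2.41 to 2.64). Il7r, the receptor for the survival cytokine interleukin-7, was the exception of the list at 285 CPM against 729.7 CPM (log2 ratio -1.36). Of 14 tissue residence genes, 6 were past 2-fold lower and 1 higher, with a median of -0.75. Those lower included Itgae, an integrin chain that binds epithelium, at -1.39 (-1.51 to -1.27) and Cxcr6, a chemokine receptor of tissue T cells, at -3.21 (-3.33 to -3.08).

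Cytotoxic and natural killer genes were past 2-fold higher for 17 of 21 with 0 lower, and their median was 2.20. They summed to 2461 against 566 CPM, but 1 or more of their UMIs were found in 67.2% against 74.5% of cells and 3 or more in 44.6% against 37.5%. The median cell held 2 of these UMIs in both groups, at unequal depths, so the higher sum lay in a part of the 1661 cells. Ccl5, a chemokine of killer and memory cells, stood at 1311 CPM against 164 CPM, a log2 ratio of 3.0 (2.94 to 3.05). It was found in 29.7% of the 1661 cells (21.3% thinned), in 11.1% of interleukin-17 type T cells (3.61% thinned) and in 5.2% of endothelial cells (1.04% thinned). Eomes, a transcription factor of cytotoxic memory, had a log2 ratio of 3.1 (2.84 to 3.36), Ifng, which encodes interferon-gamma, of 2.78 (2.59 to 2.98), and the granule protein gene Nkg7 of 1.56 (1.45 to 1.68). The granule protease gene Gzma had a ratio of 3.91, but 86.8% of its UMIs in the 1661 cells came from 5 cells. Klrk1, which encodes the activating receptor NKG2D, had the opposite sign at -0.99 (-1.10 to -0.87). The coreceptor genes had log2 ratios of 3.37 (3.06 to 3.71) for Cd8a, 3.04 (2.86 to 3.23) for Cd8b1 and 1.71 (1.56 to 1.86) for Cd4.

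T cell identity genes were closer between the groups, with 7 of 23 past 2-fold higher, 0 lower and a median of 0.53. This list holds the CD3 genes, which helped choose the cells of both groups. Themis, which tunes receptor signalling in developing T cells, had a log2 ratio of 2.13 (2.06 to 2.20), Cd28 of 1.52 (1.46 to 1.58) and the adhesion receptor gene Cd2 of 1.49 (1.42 to 1.57). Of 17 genes of costimulation and inhibition, 6 were past 2-fold higher, among them Cd27 at 2.32 (2.17 to 2.48), Tigit at 1.64 (1.41 to 1.87) and Btla at 1.40 (1.27 to 1.54). Havcr2, which encodes the inhibitory receptor TIM-3, was lower at -2.96 (-3.47 to -2.49). Cxcr5, which guides cells to B cell follicles, had a log2 ratio of 2.45 (2.19 to 2.71). Among regulatory T cell genes 6 of 19 were past 2-fold higher and 3 lower. Izumo1r, a folate receptor family member of regulatory and anergic cells, stood at 102 CPM against 19.0 CPM (log2 ratio 2.43, 2.25 to 2.61), and Il2ra, the high-affinity interleukin-2 receptor chain, at 46.4 CPM against 395 CPM (log2 ratio -3.09, -3.21 to -2.97).

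Of 18 type 17 genes that the rule did not use, 17 were past 2-fold lower and the median was -3.43. Il17f, which encodes another cytokine of the interleukin-17 family, stood at 1.27 CPM against 175 CPM (log2 ratio -7.10, -7.86 to -6.44). Maf, a transcription factor used by several T cell types, was within 2-fold at -0.42 (-0.48 to -0.37). The 8 measured gamma-delta receptor genes were all past 2-fold lower, with Trdc at 20.5 CPM against 327 CPM (log2 ratio -3.99, -4.17 to -3.82). The Trgc genes are near-identical copies, and their counts are uncertain one by one.

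The 12 higher genes whose intervals lay farthest from 0 were Bend4, Cd8a, Gm2682, Lef1, Ccl5, Mctp2, Cd8b1, Eomes, Il12rb2, Samd3, Ly6c2 and Gimap6. Bend4 had a log2 ratio of 3.41 (3.1 to 3.74) and was found in 20.8% against 2.90% of cells. Gimap6, a GTPase of the immune-associated nucleotide-binding family, was found in 85.6% against 30.0% of cells, with a log2 ratio of 2.83 (2.75 to 2.92). Ly6c2, a surface antigen of memory CD8 cells, stood at 200.4 CPM against 26.5 CPM (log2 ratio 2.92, 2.77 to 3.07). The 12 such lower genes were Il17f, Shank2, Kcnk1, Trdv4, Tdrd9, Cdh10, Cryba4, Scart2, Ppp1r14c, Il17re, Lingo4 and Ly6g5b, with log2 ratios from -7.67 (Shank2) to -5.30 (Ppp1r14c). Scart2, a scavenger receptor of gamma-delta cells, stood at 4.53 CPM against 179 CPM.

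Cell cycle genes were past 2-fold lower for 10 of 11 with a median of -1.27, and Mki67, a gene of cycling cells, was found in 4.52% against 13.3% of cells. In the 1661 cells 47.2% of the Mki67 UMIs lay in 5 cells. With cells removed that held 3 or more UMIs of another cell type's genes, the Stmn1 ratio was 0.06, the opposite direction. The neutrophil genes S100a8 and S100a9 were lower at -2.22 and -2.37, and 84.9% of the S100a8 UMIs of the interleukin-17 type T cells lay in 5 cells. Against the interleukin-17 type T cells with 2 or more UMIs of the 4 genes, the S100a8 and S100a9 ratios were 0.31 and 0.26, so their direction rested on few cells. Ighm, the heavy chain of IgM, was found in 40.1% against 13.7% of cells and in 0.416% of endothelial cells, with a ratio of 1.65 (1.51 to 1.79), while the B cell gene Ms4a1 had 0 UMIs in the 1661 cells. Macrophage genes summed to 340 CPM in the 1661 cells and 214 CPM in interleukin-17 type T cells, with a median log2 ratio of 0.51. They reached 3 or more UMIs in 2.35% and 4.13% of cells, and dendritic genes in 3.01% and 7.99%. Smooth muscle genes were past 2-fold lower for 3 of 4, mast cell genes for 2 of 4 and keratinocyte genes for 2 of 5. Endothelial and red cell genes were past 2-fold higher for 1 of 5 and 1 of 3. The part of these cells in the result was not tested.

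**Figure D3:**
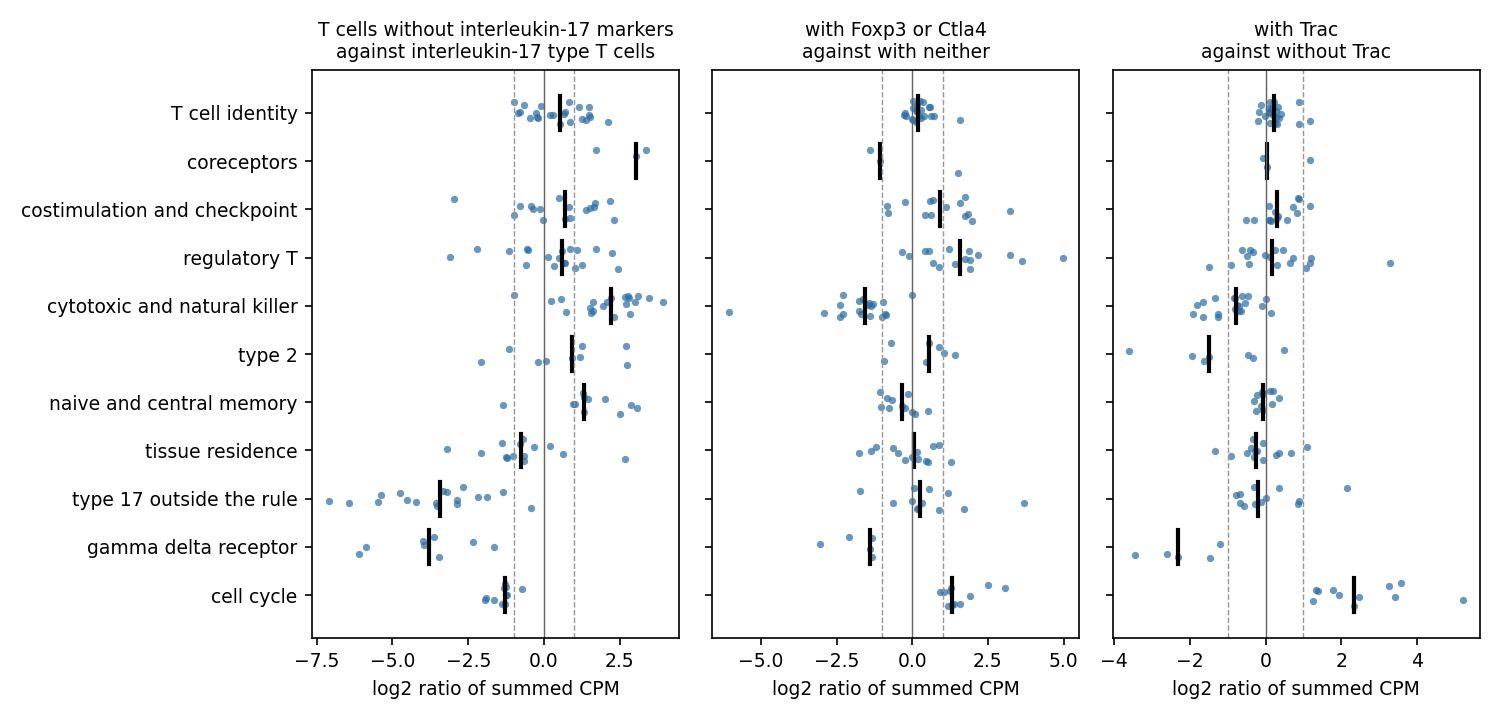
Log2 ratio of summed CPM (linear x axes) of each gene with at least 50 UMIs over both groups, by gene list, in 3 comparisons: T cells without interleukin-17 markers against interleukin-17 type T cells, cells with Foxp3 or Ctla4 against cells with neither, and cells with Trac against cells without, where points are genes, with the genes that formed the groups left out, black bars are list medians, dashed lines mark 2-fold, and genes at 0 UMIs in a group are drawn at their bound against 3 UMIs. In that order cytotoxic genes had medians of 2.20, -1.56 and -0.77, and type 17 genes of -3.43, 0.25 and -0.19.

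Among the 1661 cells, those with Foxp3 or Ctla4 held more transcripts of regulatory and costimulatory genes and of Cd4, and fewer of cytotoxic genes and of Cd8, than those with neither. Of 11036 genes, 4.33% were past 2-fold higher and 1.81% lower, with a median log2 ratio of 0.11 over all of these genes. The split used Foxp3 and Ctla4 themselves, which are left out of the lists. Scaling by edgeR's trimmed mean moved that median to -0.02 and gave 370 genes higher and 264 lower, so that 58.4% of these genes were higher in place of 70.5%. The median depths were 7097 and 7761 UMIs.

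Of 16 regulatory T cell genes measured, 10 were past 2-fold higher and 0 lower, with a median of 1.57. Tnfrsf4, which encodes the costimulatory receptor OX40, stood at 105 CPM against 11.2 CPM, a log2 ratio of 3.23 (2.90 to 3.56), and was found in 36.2% against 6.56% of cells (9.78% against 1.38% thinned) and in 0.208% of endothelial cells. Ikzf2, which encodes the transcription factor Helios of regulatory cells, stood at 487 CPM against 128 CPM (log2 ratio 1.92, 1.82 to 2.03), and Nrp1, a receptor of thymus-derived regulatory cells, at 89.3 CPM against 20 CPM (log2 ratio 2.16, 1.90 to 2.42). Nrp1 is also an endothelial gene and was found in 75.9% of the endothelial cells. Lrrc32, which presents latent TGF-beta, had a ratio of 4.97 (3.71 to 6.62) on 119 against 5 UMIs, and Il10, an inhibitory cytokine, of 3.64 (2.97 to 4.39), with 38.1% of its UMIs on the Foxp3 or Ctla4 side in 5 cells. Il2ra stood at 54.0 CPM against 40.6 CPM (log2 ratio 0.41, 0.19 to 0.64), within 2-fold.

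Costimulation and checkpoint genes were past 2-fold higher for 7 of 14 with 0 lower and a median of 0.90. Icos had a log2 ratio of 1.57 (1.49 to 1.65) at 685 CPM against 231 CPM, Pdcd1, which encodes PD-1, of 1.98 (1.59 to 2.39), and Tigit of 1.73 (1.46 to 2.0). Maf, which takes part in the control of interleukin-10 and of follicular helper cells, stood at 479 CPM against 148 CPM (log2 ratio 1.70, 1.6 to 1.80). Cd4 was higher at 1.5 (1.34 to 1.67), and Cd8a and Cd8b1 were lower at -1.06 (-1.30 to -0.83) and -1.38 (-1.54 to -1.23). T cell identity genes were near even, with 1 of 22 past 2-fold and a median of 0.20. The list holds the CD3 genes, which helped choose the cells on both sides.

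Cytotoxic genes were past 2-fold lower for 15 of 20 with 0 higher, and their median was -1.56. Ccl5 stood at 576 CPM against 1866 CPM (log2 ratio -1.70, -1.75 to -1.64), Nkg7 at 69.8 CPM against 218 CPM (log2 ratio -1.64, -1.80 to -1.49) and Klrk1 at 17.9 CPM against 93.7 CPM (log2 ratio -2.39, -2.69 to -2.10). Under the trimmed mean scaling 19 of the 20 were past 2-fold lower. Eomes, of the same list, stood at -0.96 (-1.17 to -0.76). Ly6c2 had a ratio of -2.31 (-2.47 to -2.15) and was found in 9.64% against 33.0% of cells. The 5 gamma-delta receptor genes measured were all past 2-fold lower. Of 11 naive genes 2 were, Dapl1 and Lef1, the latter at -1.08 (-1.16 to -1.01).

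**Figure D4:**
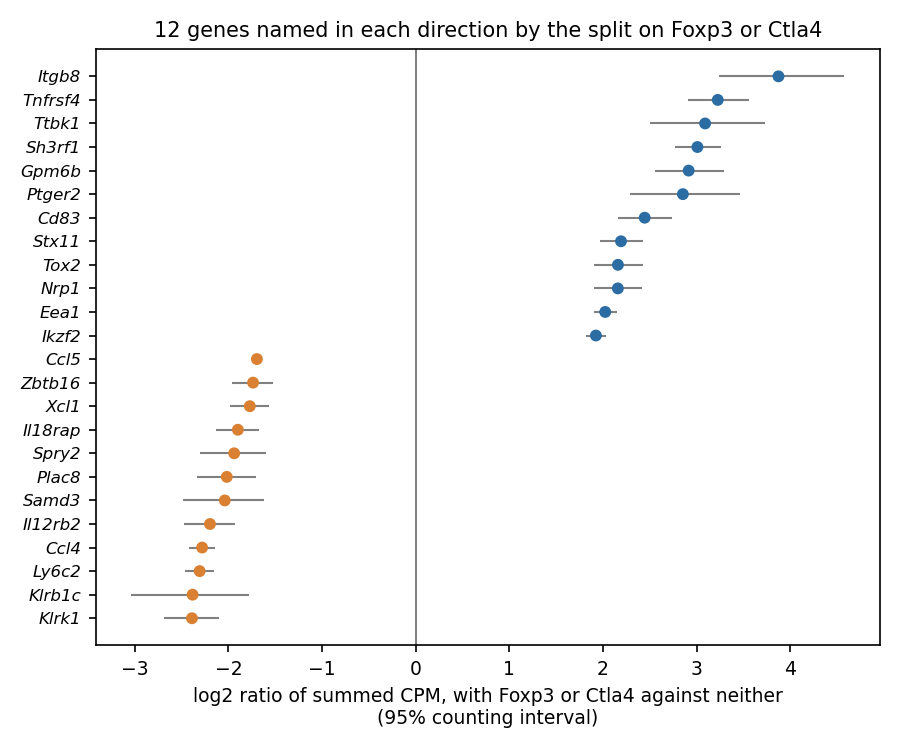
Log2 ratio of summed CPM (x axis) of the 12 genes in each direction whose interval lay farthest from 0, in the 716 cells with Foxp3 or Ctla4 against the 945 with neither, with points as ratios and lines as 95% intervals of counting error. Itgb8 (3.87) and Tnfrsf4 (3.23) led the higher genes, and the ratios of the lower genes ran from -2.39 (Klrk1) to -1.70 (Ccl5).

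Among these 12 higher genes Itgb8, an integrin chain that activates TGF-beta, had a log2 ratio of 3.87 (3.24 to 4.57) and was found in 12.8% against 1.59% of cells. Ptger2, a prostaglandin E2 receptor, stood at 2.85 (2.28 to 3.47), Tox2, a transcription factor of follicular helper cells, at 2.16 (1.90 to 2.42), and the activation marker Cd83 at 2.45 (2.16 to 2.74). Sh3rf1, Gpm6b, Ttbk1, Stx11 and Eea1 completed the set with Tnfrsf4, Nrp1 and Ikzf2. The 12 lower genes held Il12rb2 and Il18rap, chains of the receptors for interleukin-12 and interleukin-18, at -2.20 (-2.47 to -1.93) and -1.90 (-2.13 to -1.67). Ccl4 and Xcl1, chemokines of activated killer cells, stood at -2.28 (-2.42 to -2.14) and -1.77 (-1.98 to -1.56), and Ly6c2, Klrk1, Klrb1c, Plac8, Ccl5, Samd3, Spry2 and Zbtb16 completed the set.

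Genes of dividing cells and of other cell types differed with this split too. Cell cycle genes were past 2-fold higher for 10 of 11, with 63.9% of the Mki67 UMIs on the Foxp3 or Ctla4 side and 82.2% on the other side in 5 cells. Of the dendritic genes H2-Aa, H2-Ab1, H2-Eb1 and Cd74 were past 2-fold higher, and dendritic genes summed to 581 against 211 CPM and to 3 or more UMIs in 3.91% against 2.33% of cells. Of the macrophage genes C1qa, C1qb and C1qc were past 2-fold lower. Red cell and skeletal muscle genes were past 2-fold higher for 3 of 3 and 3 of 4. Without cells that held 3 or more UMIs of another cell type's genes, not counting genes found in over 20% of the 1661 cells, the ratios of C1qa and Hbb-bs were 0.10 and -0.50, both of the opposite direction. Both are themselves among the genes that chose the removed cells. The part of these cells in the result was not tested. Within Cd4 cells alone, an alternative chosen after seeing the data, 4.35% of 8340 genes were past 2-fold higher and 0.923% lower. There, regulatory genes were past 2-fold higher for 8 of 14, costimulatory genes for 3 of 12 and cell cycle genes for 1 of 7, and cytotoxic genes were lower for 7 of 13.

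The 98 cells with Foxp3 were set beside the 618 with Ctla4 and no Foxp3, a comparison added after the data were seen, whose genes were picked with their values known. Of 8810 genes, 4.71% were past 2-fold higher in the Foxp3 cells and 4.57% lower, with a median log2 ratio of 0.08. Of 15 regulatory genes measured, without Foxp3 and Ctla4, 12 were past 2-fold higher and 0 lower, with a median of 1.61. Cytotoxic genes were past 2-fold lower for 12 of 15, and coreceptor genes for 2 of 3. Cells with Cd8 and no Cd4 made up 3.06% of the Foxp3 cells and 17.8% of the Ctla4 cells without Foxp3. The part of Cd8 cells in the cytotoxic difference was not tested. Ikzf2 stood at 1530.3 CPM against 298 CPM (log2 ratio 2.36, 2.26 to 2.46), in 84.7% against 40.1% of cells. Il2ra stood at 154 CPM against 35.9 CPM (log2 ratio 2.11, 1.78 to 2.43) and was found in 45.9% against 11.7% of cells, beside 13.1% of the cells with neither gene. Ctla4 cells without a Foxp3 UMI thus held Il2ra no more often than cells with neither. Foxp3 was sparse, with 119 UMIs in the 55 Cd4 cells without Cd8 that held it. The 618 cells can therefore include cells whose Foxp3 was not detected. Tnfrsf9, which encodes the receptor 4-1BB, stood at 359 CPM against 59.0 CPM (log2 ratio 2.61, 2.38 to 2.84). Tnfrsf18, which encodes GITR, had a log2 ratio of 1.91 (1.59 to 2.23), Lrrc32 of 2.64 (2.09 to 3.18), Ikzf4 of 2.43 (1.96 to 2.90) and Itgae of 2.45 (2.17 to 2.74). Il1rl1, which encodes the interleukin-33 receptor ST2, and Areg, a growth factor that regulatory cells can release in tissue repair, stood at 2.38 (1.94 to 2.83) and 1.16 (0.92 to 1.39). Ctla4 itself stood at 1584 CPM against 739.7 CPM (log2 ratio 1.10, 1.01 to 1.19), a measure the second group was chosen by.

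The 618 cells with Ctla4 and no Foxp3 held more Cd40lg, the ligand by which helper cells stimulate B cells and dendritic cells, so that the Foxp3 cells stood at 36.5 CPM against 146 CPM (log2 ratio -2.0, -2.54 to -1.5). Tnfsf8, the ligand of CD30, stood at 123 CPM against 516 CPM (log2 ratio -2.07, -2.35 to -1.80), and Tcf7, a transcription factor of naive and memory cells, at 121 CPM against 369 CPM (log2 ratio -1.61, -1.89 to -1.33). The groups were within 2-fold for Maf at 0.14 (-0.00 to 0.28), Icos at 0.37 (0.26 to 0.48) and Cd4 at -0.20 (-0.47 to 0.07). Ccl5 stood at 46.1 CPM against 672 CPM. The values of the Foxp3 cells rest on 932496 UMIs, of which a single cell held 53722. Genes of other cell types differed between these groups too, with keratinocyte genes past 2-fold higher for 3 of 3, macrophage genes for 3 of 4 and cell cycle genes for 4 of 9, and fibroblast genes lower for 6 of 8. Dendritic and B cell genes were past 2-fold higher for 2 of 4 and 2 of 2, and skeletal muscle and red cell genes lower for 3 of 3 and 2 of 2. Krt14, a keratin of the skin's basal layer, stood at 326 CPM against 37.2 CPM (log2 ratio 3.13, 2.86 to 3.40), in 7.14% against 6.31% of cells, and Krt5, its partner keratin, had a log2 ratio of 3.03 (2.65 to 3.42). Rgs5, a gene of pericytes, had a ratio of 3.38 (2.67 to 4.13), and the macrophage gene C1qb of 1.73 (1.23 to 2.21), in 8.16% against 4.05% of cells. Birc5 and Stmn1, genes of dividing cells, had ratios of 1.55 (1.04 to 2.05) and 1.30 (1.02 to 1.58). The fibroblast gene Dcn stood lower in Foxp3 cells at 386 CPM against 1047 CPM (log2 ratio -1.44, -1.6 to -1.29). The part of these cells in the result was not tested.

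**Figure D5:**
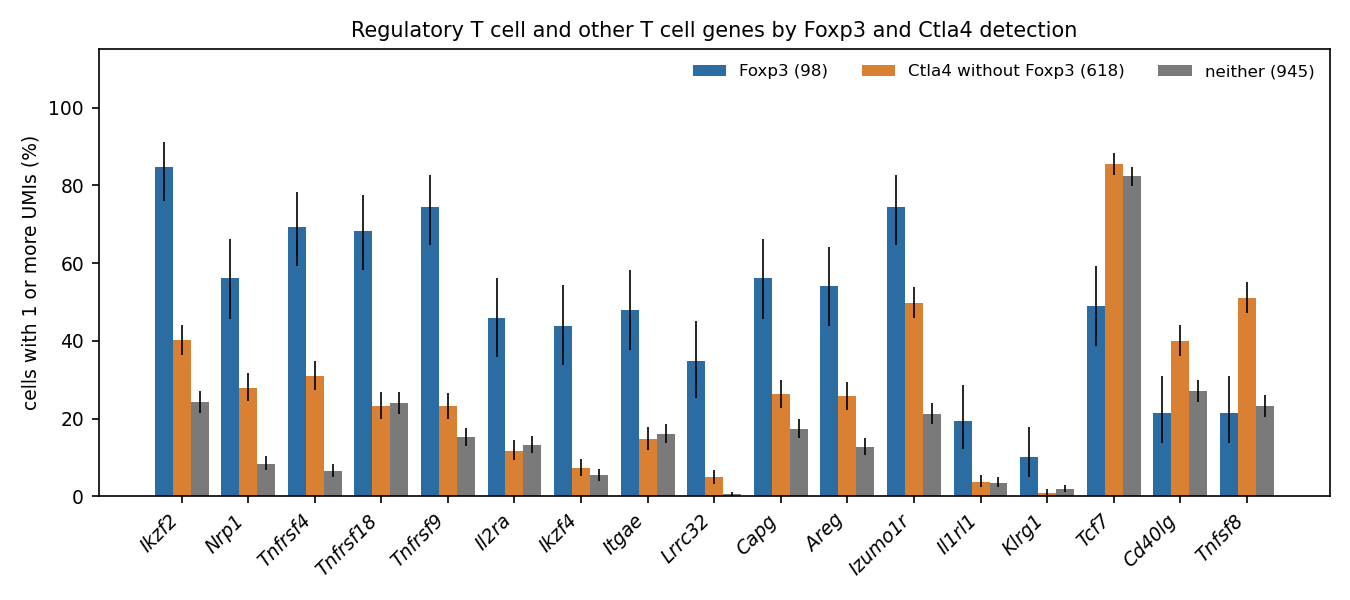
Share of cells with 1 or more UMIs (%) of 17 genes in the 98 cells with Foxp3, the 618 with Ctla4 and no Foxp3 and the 945 with neither, with bars from 0 and error bars as exact binomial 95% intervals of counting error. In that order Il2ra was found in 45.9%, 11.7% and 13.1% of cells, and Ikzf2 in 84.7%, 40.1% and 24.2%.

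Cells with Trac, beside the 294 without it, held more Ctla4 and Cd4 and fewer gamma-delta and natural killer transcripts. Of 11037 genes, 3.91% were past 2-fold higher and 1.81% lower with a median of 0.03, and the 294 cells gave 2257045 UMIs in sum. The T cell genes were near even, with 1 of 22 identity genes past 2-fold and a median of 0.22. Cd3e stood at 227 CPM against 213 CPM (log2 ratio 0.09, -0.05 to 0.23) and Cd8b1 at 136 CPM against 133 CPM (log2 ratio 0.03, -0.15 to 0.21). Cd3d, Cd3e and Cd3g are in the identity list and helped choose the cells on both sides, so they cannot show evenness.

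The 5 gamma-delta receptor genes measured were all past 2-fold lower with Trac, Trdc at 7.91 CPM against 86.8 CPM (log2 ratio -3.46, -3.83 to -3.09). Of 20 cytotoxic and natural killer genes 7 were lower and 0 higher, with a median of -0.77. Klrb1c, the natural killer receptor NK1.1, stood at 10.4 CPM against 36.3 CPM (log2 ratio -1.81, -2.23 to -1.39), in 5.19% against 13.9% of cells. The signalling adaptors Tyrobp and Fcer1g, which natural killer and myeloid receptors share, stood at -1.90 (-2.16 to -1.64) and -1.65 (-1.88 to -1.42), and Xcl1 at -1.34 (-1.51 to -1.17). Il4, a cytokine of type 2 responses, stood at 5.64 CPM against 21.7 CPM (log2 ratio -1.94, -2.50 to -1.38). Il13, of the same type, was lower too, but 87.3% of its UMIs in Trac-less cells lay in 5 cells.

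Higher with Trac were Ctla4 at 411 CPM against 183 CPM (log2 ratio 1.17, 1.02 to 1.32), Cd4 at 109 CPM against 48.3 CPM (log2 ratio 1.17, 0.89 to 1.46), Izumo1r at 1.19 (0.91 to 1.49) and Tox2 at 56.5 CPM against 13.3 CPM (log2 ratio 2.09, 1.56 to 2.67). Traj27, a joining segment of the same alpha chain locus as Trac, stood at 1.63 (0.96 to 2.38). Stmn1, Phactr2, Siah3, Gpm6b, Top2a, Cd83 and Mt2 made up the rest of the 12 higher genes with intervals farthest from 0. Among the 12 such lower genes were Trdc, Trgc4, Lyz2, Tyrobp, Ccl4, Fcer1g, Klrb1c, Rbpms, Spry2, Socs2 and Pard3.

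Genes of dividing cells and of other cell types differed with Trac. All 11 cell cycle genes were past 2-fold higher with Trac, Cenpf on 169 against 0 UMIs, and 48.0% of the Mki67 UMIs of the Trac cells lay in 5 cells. Lyz2, a macrophage gene, stood at 132 CPM against 469.6 CPM, and 91.4% of the Lyz2 UMIs of the Trac-less cells lay in 5 cells. With cells removed that held 3 or more UMIs of another cell type's genes, the Lyz2 ratio was 1.29, the opposite direction. Lyz2 is itself among the genes that chose the removed cells. With each cell given equal weight, 7 of 11 cell cycle genes were past 2-fold higher and Ccnb1 stood at -0.08. The share of all genes past 2-fold under equal weight is not given here, and the 3.91% above is for summed UMIs. Cell cycle genes had 1 or more UMIs in 29.5% of cells with Trac and 27.6% of cells without. They had 3 or more in 5.19% and 2.38%. Macrophage genes summed to 249 against 816 CPM, with 7 of 8 past 2-fold lower, and reached 3 or more UMIs in 2.05% of cells with Trac and 3.74% of cells without. Endothelial genes were past 2-fold lower with Trac for 4 of 5, summing to 265 against 446 CPM, and 95.3% of the Fabp4 UMIs of Trac-less cells lay in 5 cells. The smooth muscle genes measured were past 2-fold lower with Trac for 2 of 2. Keratinocyte genes were past 2-fold higher for 3 of 4, summing to 157 against 24.8 CPM, and 77.3% of the Krt14 UMIs of Trac cells lay in 5 cells. Skeletal muscle genes were higher for 2 of 4 and red cell genes for 2 of 3. With the removal that did not count genes found in over 20% of the 1661 cells, the ratios of Fabp4 and Krt14 were 0.57 and -0.28, both of the opposite direction. Both are themselves among the genes that chose the removed cells. The part of these cells in the result was not tested.

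Cells with Cd4 and no Cd8 held more regulatory transcripts, and cells with Cd8 and no Cd4 more cytotoxic and naive transcripts. Of 9945 genes 9.11% were past 2-fold higher in the 625 Cd4 cells and 2.02% lower, with a median log2 ratio of 0.20. Scaling by edgeR's trimmed mean moved that median to 0.01, with 655 genes higher and 307 lower, so that 68.1% were higher in place of 81.8%. The comparison was added after the data were seen, and the median depth was 7094 UMIs in Cd4 and 8533.5 UMIs in Cd8 cells.

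Of 13 cytokine and ligand genes 7 were past 2-fold higher in Cd4 cells and 0 lower, with a median of 1.21. Cd40lg stood at 182 CPM against 5.58 CPM (log2 ratio 5.02, 4.45 to 5.66), in 52.3% against 2.50% of cells (16.3% against 0.833% thinned). Tnfsf8 stood at 537 CPM against 40.0 CPM (log2 ratio 3.75, 3.53 to 3.98), and Tnfsf11, which encodes RANKL, the inducer of bone-resorbing osteoclasts, at 65.4 CPM against 1.79 CPM (log2 ratio 5.19, 4.2 to 6.42), in 21.1% against 1.46% of cells. Maf stood at 496 CPM against 58.1 CPM (log2 ratio 3.09, 2.91 to 3.28) and Icos at 678 CPM against 112 CPM (log2 ratio 2.60, 2.46 to 2.73). Of 16 regulatory genes 12 were past 2-fold higher and 0 lower, with a median of 2.07. Of 18 type 17 genes that the rule did not use, 11 reached the minimum, and Il17f, Il17re and Kcnk1 did not. Of the 11, 6 were past 2-fold higher and 0 lower, with a median of 1.44. The 6 were Il1r1, Tmem176a, Maf, Zbtb16, Rora and Ccr6. Type 2 genes were higher for 4 of 5 (Il1rl1, Areg, Hpgds and Il4), where Il1rl1 and Areg are also among the regulatory genes counted. Costimulation and checkpoint genes were higher for 9 of 15 with 2 lower. Areg stood at 135 CPM against 18.5 CPM (log2 ratio 2.86, 2.53 to 3.21), and 79.5% of the Areg UMIs of Cd8 cells lay in 5 cells. The 12 higher genes with intervals farthest from 0 were Cd40lg, Tnfsf11, Tnfrsf4, Ankrd6, Itgb8, Gm14718, Tnfsf8, Tox2, Nav2, Tbc1d4, Rapgef5 and Izumo1r.

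The Cd8 cells held cytotoxic and naive genes. Of 18 cytotoxic genes 13 were past 2-fold lower in Cd4 cells and 0 higher, with a median of -2.67. Among the 13, Gzma, Gzmb and Ccl3 had 97.9%, 84.9% and 63.2% of their Cd8 cell UMIs in 5 cells, against 6.02% for Nkg7. Nkg7 stood at 26.3 CPM against 293 CPM (log2 ratio -3.48, -3.74 to -3.23), in 7.68% against 76.5% of cells (1.6% against 25% thinned), and Ccl5 at 228 CPM against 1920.1 CPM (log2 ratio -3.07, -3.16 to -2.99). Ifng, of the same list, was within 2-fold at -0.31 (-0.53 to -0.09). Of 11 naive genes 4 were past 2-fold lower in Cd4 cells. Ccr7 was found in 37.3% against 71.5% of cells (log2 ratio -1.53, -1.65 to -1.42). Bend4 stood at 1.53 CPM against 154 CPM (log2 ratio -6.65, -7.87 to -5.66), and Ccr9, which guides cells to the gut, at -5.85 on 2 against 99 UMIs. Itgae was lower in Cd4 cells at -1.02 (-1.29 to -0.77). The 12 lower genes with intervals farthest from 0 were Bend4, Gm44174, 1700062C10Rik, Ccl4, Ccr9, Gm43698, Klrd1, Nkg7, Adgrg5, Atp8b4, Ly6c2 and Ccl5. Skeletal muscle genes were past 2-fold lower in Cd4 cells for 3 of 3. Cell cycle genes were past 2-fold higher in Cd4 cells for 5 of 9, with a median of 1.35, and 67.5% of the Birc5 UMIs of Cd4 cells lay in 5 cells. Red cell genes were higher for 2 of 2, B cell genes for 1 of 2 (Igkc) and fibroblast genes for 2 of 8 (Col3a1 and Pdgfra). Without cells that held 3 or more UMIs of another cell type's genes, not counting genes found in over 20% of the 1661 cells, the Col3a1 ratio was -0.09, the opposite direction. Col3a1 is itself among the genes that chose the removed cells. The part of these cells in the result was not tested.

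Variable segments of the receptor chains were read in a minority of cells. Trav segments were seen in 297 of the 1661 cells (17.9%), and 70 of 130 annotated segments occurred, of which Trav16n was in 9.76% (6.64 to 13.7%) of these cells. Trbv segments were seen in 261 cells (15.7%) and 22 of 35 occurred, with Trbv12-2 in 18.4% (13.9 to 23.6%) and Trbv2 in 12.3% (8.54 to 16.9%) of these cells. No single alpha or beta segment was thus found in most of the cells with a segment of its family. Trav segments were also seen in 16.6% of the 211 cells with none of Trac, Foxp3 and Ctla4. Whether the segment UMIs came from rearranged receptors was not tested, so these values do not measure receptor diversity. Trdv segments were seen in 25 cells, of which 11 held Trdv4, whereas in the interleukin-17 type T cells they were seen in 333 cells, of which 303 (91.0%, 87.4 to 93.8%) held Trdv4. Many Trav segments have near-identical copies, and their counts are uncertain.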

How the data were processed

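The deposited files hold UMI counts per gene and cell, made by the authors from droplet 3 prime libraries. The submitters' processing notes name Cell Ranger 3.1.0, STAR and mm10, while the file headers name Cell Ranger 9.0.0, and which made the files is not given in the sources used here. The T cells and all gene lists were chosen with earlier results of these data known. UMIs were summed over the cells of a group, scaled to CPM and compared as log2 ratios with exact 95% intervals (conditional binomial for ratios, Clopper-Pearson for shares), which cover counting error only. Genes needed 50 UMIs over both groups, and a gene at 0 in a group was set against 3 UMIs. Named were genes of the rule, of the lists, and the 12 in each direction with the interval farthest from 0 and a UMI in 10% or more of the higher group's cells. Some genes of these sets are not reported here. Endothelial cells were called by 2 or more UMIs of Pecam1 and Cdh5 in sum, with neither Ptprc nor CD3 UMIs. No doublets were removed, and Scrublet (scanpy 1.11.5, 0.8% per 1000 cells) marked 111 of the 1661 cells (6.68%). Alternatives were trimmed mean scaling (edgeR 4.0.16, R 4.3.3), totals without ribosomal and mitochondrial genes, other UMI minimums, equal weight per cell, removal of doublets or of cells with UMIs of other cell types, and other thresholds. Scripts ran in Python 3.11.15 with numpy 2.4.6, scipy 1.17.1 and pandas 2.3.3 and were tested on simulated data.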

Additional observations from a re-analysis of the deposited data

How the results depend on the processing

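The number of T cells without interleukin-17 markers, 1661, was 543 when cells with 3 or more UMIs of another cell type's genes were removed, and moved by less than 1.5 times under the 10 other alternatives. The share with Trac (82.3%) was 27.8% and 44.0% with each cell thinned to 1000 or 2000 UMIs, 62.0% at 2 or more Trac UMIs, 99.3% for Trac, Trbc1 or Trbc2, and 77.7% with cells holding UMIs of another cell type removed. The share with Foxp3 or Ctla4 (43.1%) was 21.7% and 28.5% thinned, 5.90% for Foxp3 alone and 33.2% at 2 or more UMIs.

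Genes past 2-fold against interleukin-17 type T cells numbered 1779, and 1042 with a minimum of 200 UMIs. For Trac the 631 genes became 1335 and 139 with minimums of 20 and 200 UMIs and 219 with cells of other types' UMIs removed. They became 342 when genes found in over 20% of the cells were left out of that removal, an alternative chosen after seeing the data. For Foxp3 or Ctla4 the 678 genes became 1251, 258 and 361 in the same order, and 440 in Cd4 cells alone (chosen after seeing the data). For Cd4 against Cd8 the 1107 genes became 1887, 416 and 634.

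Log2 ratios that changed sign against interleukin-17 type T cells were Fabp4 (-0.21 without Scrublet doublets, -0.015 with cells of other types' UMIs removed), S100a9 (0.044) and Stmn1 (0.061) with that removal, S100a8 (0.026) with the added removal, and Retnlg (1.04), S100a8 (0.31) and S100a9 (0.26) at 2 or more marker UMIs. For Trac they were Ccnb1 (-0.085, mean of single cells), Lyz2 (1.29, removal), and Fabp4 (0.57), Krt14 (-0.28) and Lyz2 (0.24) with the added removal. For Foxp3 or Ctla4 they were C1qa (0.10) and Hbb-bs (-0.50) with the added removal and Itga1 (0.033) in Cd4 cells alone, and for Cd4 against Cd8 Col3a1 (-0.093) with the added removal. Apart from Stmn1, the genes that changed sign under either removal are among the genes that chose the removed cells. Those ratios were thus selected on the counts they describe. The cause was not tested. Of 394 named genes past 2-fold, 27 were no longer so with the mean of single cells, 27 with the added removal and 10 under trimmed mean scaling. The comparison with the Gli1- uninjured library was not run, since 2 cells met the rule there. No paired analysis was possible because each condition is 1 library.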

Other observations

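Other groups of genes were measured in the same cells. Against interleukin-17 type T cells, where 4.91% of all genes were past 2-fold higher and 8.47% lower, 4 of 16 cytokine receptor genes were past 2-fold higher in the 1661 T cells without interleukin-17 markers and 4 lower, with a median log2 ratio of -0.24. Il6ra, a chain of the interleukin-6 receptor, had a log2 ratio of 1.76 (1.61 to 1.92), Il21r of 1.33 (1.23 to 1.43) and Il18r1 of -1.82 (-1.89 to -1.76). Of 19 cytokine and ligand genes 3 were higher (Ifng, Il4 and Il13) and 5 lower, among them Areg at -1.14 (-1.24 to -1.05) and Tnfsf11 at -1.28 (-1.43 to -1.13), and the median was -0.13. Of 13 immediate early genes, which respond to stimulation and to tissue dissociation, 2 were past 2-fold lower, beside 8.47% of all genes. Their median was -0.41. The 2 lower genes were Fosb at -1.28 (-1.31 to -1.25) and Nr4a1 at -1.12 (-1.17 to -1.07). Fosb was found in 91.1% of the 1661 cells, 98.9% of interleukin-17 type T cells and 90.0% of endothelial cells. None of 11 CREB and protein kinase A genes was past 2-fold in either direction in this comparison. In Foxp3 cells against Ctla4 cells without Foxp3, Pde3b, a phosphodiesterase gene, was the 1 of 11 past 2-fold lower, at 46.1 CPM against 269 CPM (log2 ratio -2.55, -3.02 to -2.11), in 9.18% against 53.7% of cells. In that comparison 4.57% of all genes were past 2-fold lower.

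Of 11 chemokine receptor genes measured, 4 were past 2-fold higher with Foxp3 or Ctla4 (Cxcr5, Ccr4, Ccr8 and Ccr6), Cxcr5 at 1.30 (1.07 to 1.53), where 4.33% of all genes were, and the median of the list was -0.03. In Cd4 cells against Cd8 cells 3 of 10 were higher and 2 lower, beside 9.11% and 2.02% of all genes, with a median of 0.17. Some genes listed for other cell types were found across the 1661 cells. Dcn, a matrix proteoglycan of fibroblasts, was found in 50.6% of these cells and in 53.2% of endothelial cells. Pecam1, of the endothelial list, was found in 59.4% of the 1661 cells. Of the same list, Fabp4 was found in 9.57%, Cdh5 in 1.51%, Kdr in 1.32% and Egfl7 in 1.63%. The 88.6% of endothelial cells with Pecam1 was raised by the choice of these cells, which used Pecam1 and Cdh5.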
